A study of Homo sapiens with 60 samples.

Results

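The genes described here are 41 genes of the step from G1 into S phase and of DNA replication itself, measured by RNA sequencing in HT29, a human colorectal adenocarcinoma cell line. They were taken by symbol from a deposited table of 60675 gene identifiers, and a gene counted as a member if its mean reached at least 1 CPM, its count scaled to the size of the library, in any group. All 41 symbols were found once, all reached that level, and all were among the 17049 genes tested. At that level stood 13881 genes of the whole table. The cells had been kept for 24 h with a water extract of a medicinal plant or decoction or with vehicle. The vehicle was DMSO, 0.1% in the sample characteristics and 2% in the series' design text, a difference not settled here. The characteristics give a DMSO content for the vehicle libraries only. Whether the cells given extract also had DMSO is likewise not settled here, and this touches every comparison with vehicle. Menthae Herba and Saposhnikoviae Radix are single herbs, and Saengmaek-san, Guibi-tang, Soyo-san and Okbyeongpung-san are decoctions of several herbs. Each of these was given at 500, 100 and 20 µg/mL, called high, medium and low here, with 3 libraries per dose, beside 3 vehicle libraries. A further decoction, Soshiho-tang, had 1 library per dose and entered no test. HT29 is 1 cell line, and the labels do not say whether the libraries of a group came from separate cultures, so p-values reflect library-to-library spread alone, part or all of which may be technical.

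A cell commits to division when cyclin D and cyclin E kinases inactivate the retinoblastoma protein and release E2F transcription factors, which switch on a common set of S-phase genes. During G1 the proteins CDC6 and CDT1 load the ring of MCM2 to MCM7 onto replication origins. At S phase CDC45 and the GINS complex join the ring to make the active helicase, and polymerases, the sliding clamp PCNA and its loader RFC copy the strands from nucleotides that ribonucleotide reductase and thymidylate synthase supply. In the gut these genes mark the dividing cells of the crypt, and a carcinoma line such as HT29 goes on dividing in culture. The measured RNA is the sum over all cells of a culture, in which more cells in S phase and more RNA per cell cannot be told apart.

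Promoter stretches are shown for 6 members with an E2F word in the 120 bases before the start, chosen to show the words. E2F1 is among these 6 although no extract raised it past the threshold without the library-order term described further on. Beside these 6 stand 5 members that the results turn on and that have none of the words listed below in these bases. Of these MCM2 and CDC6 held a word elsewhere in the 300-base window described next, and CDC45, FEN1 and RRM2 held none in it. Promoter windows of 300 bases (250 before to 50 after the gene's start, the first window listed per gene) were found in RefSeq for 35 of the 41 members. The words TTTCCCGC, TTTCGCGC, TTTGCCGC and TTTGGCGC, read on both strands, were in 20 of these 35 windows (57.1%). Among 27305 promoters of the same length 3.33% held one, and among the 11321 of genes tested here 5.21%. The word CCAAT was in 51.4% of the members' windows and in 36.6% of those of genes tested. TTTGAA, the core of the cell cycle homology region found in many G2/M promoters, was in 1 member's window (2.86%) against 9.9% of those of genes tested. A match is a description of the letters and does not show binding. The word set is narrow, and the lack of these words does not show that a promoter lacks E2F sites. The stretches of CDC6 and CDC45 hold TTTGGCGG, which differs from TTTGGCGC in its last letter and was not counted. The lines give the 120 bases before the start, 5′ to 3′ on the gene's own strand, with the E2F words in capitals (GCGGGAAA and GCGGCAAA are such words read on the other strand), in build GRCh38.p14. They lie at chr7:100101398-100101517 (minus strand) for MCM7, chr13:33818029-33818148 (plus strand) for RFC3, chr19:4909381-4909500 (plus strand) for UHRF1, chr20:5126623-5126742 (minus strand) for PCNA, chr18:657533-657652 (plus strand) for TYMS, chr20:33686386-33686505 (minus strand) for E2F1, chr3:127598291-127598410 (plus strand) for MCM2, chr17:40287759-40287878 (plus strand) for CDC6, chr22:19479800-19479919 (plus strand) for CDC45, chr11:61792791-61792910 (plus strand) for FEN1 and chr2:10122619-10122738 (plus strand) for RRM2.
MCM7: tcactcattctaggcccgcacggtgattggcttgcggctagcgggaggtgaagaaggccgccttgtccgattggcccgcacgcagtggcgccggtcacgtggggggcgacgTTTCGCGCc
RFC3: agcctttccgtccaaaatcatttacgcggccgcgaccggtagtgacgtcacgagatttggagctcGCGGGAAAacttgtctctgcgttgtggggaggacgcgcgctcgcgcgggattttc
UHRF1: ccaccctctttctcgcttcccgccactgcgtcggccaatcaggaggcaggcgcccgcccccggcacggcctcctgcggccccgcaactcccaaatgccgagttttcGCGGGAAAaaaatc
PCNA: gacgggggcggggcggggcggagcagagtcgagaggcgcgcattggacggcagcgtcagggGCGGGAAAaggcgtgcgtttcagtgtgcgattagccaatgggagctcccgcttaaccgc
TYMS: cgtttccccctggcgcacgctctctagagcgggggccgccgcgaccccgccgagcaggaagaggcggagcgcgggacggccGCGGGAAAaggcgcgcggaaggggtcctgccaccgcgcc
E2F1: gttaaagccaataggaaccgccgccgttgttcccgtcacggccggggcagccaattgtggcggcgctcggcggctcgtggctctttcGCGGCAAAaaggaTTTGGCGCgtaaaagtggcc
MCM2: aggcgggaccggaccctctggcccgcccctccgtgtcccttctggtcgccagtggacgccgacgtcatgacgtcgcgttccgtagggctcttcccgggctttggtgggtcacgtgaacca
CDC6: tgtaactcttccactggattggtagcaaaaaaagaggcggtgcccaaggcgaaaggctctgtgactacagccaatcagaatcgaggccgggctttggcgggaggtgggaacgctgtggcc
CDC45: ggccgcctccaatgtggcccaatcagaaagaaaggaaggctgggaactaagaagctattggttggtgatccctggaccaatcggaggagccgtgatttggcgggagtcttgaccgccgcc
FEN1: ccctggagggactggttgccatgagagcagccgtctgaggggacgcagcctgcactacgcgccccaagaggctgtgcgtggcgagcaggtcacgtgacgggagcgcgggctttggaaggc
RRM2: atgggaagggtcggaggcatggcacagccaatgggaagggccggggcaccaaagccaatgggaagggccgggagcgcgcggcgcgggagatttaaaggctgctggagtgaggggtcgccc

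The libraries held 19.5 to 41.9 M (mega) counts each, with a median of 29.2 M. The first principal component of log2 CPM, with 12.8% of the variance, parted 31 libraries with the earlier numbers in the sample descriptions from 29 with the later ones (component values -19.0 to -8.22 against 2.86 to 22.5, median totals 34.7 M and 24.9 M). All libraries of vehicle and of both single herbs were earlier, all those of Soyo-san, Okbyeongpung-san and Soshiho-tang later, and those of Saengmaek-san and Guibi-tang were divided between the parts. Differences of the later decoctions from vehicle can therefore not be told apart from library order within their own libraries. For Saengmaek-san replicate 3 was later at each dose. For Guibi-tang replicate 3 was later at the high dose, but replicates 2 and 3 at medium and low dose. The doses of Guibi-tang are thus not balanced for library order. Of 11 epithelial markers 10 had a median of at least 1 CPM. Fibroblast markers passed that level for 1 of 7 genes (summed level 1.57 to 3.56 CPM), immune markers for 3 of 9 (9.74 to 14.9 CPM, CD3D at 0 in every library) and endothelial markers for 2 of 6 (1.92 to 3.73 CPM). Mitochondrial genes took 12.8 to 13.5% of counts in the vehicle libraries and 9.74 to 13.9% in the treated ones, of which 2 of 57 were above the lowest vehicle library. Its part in the differences from vehicle was not tested.

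Per kilobase of exon, PCNA was the most abundant member in vehicle cells at 125 CPM per kb, followed by MCM7 at 84.1 and TK1, thymidine kinase, at 82.8. The lowest were E2F2 at 1.52 and GINS4 at 1.63 CPM per kb. Counts of a member in a library ran from 161 (GINS4) to 16825 (MCM7). Exon lengths come from GENCODE release 29, and the annotation behind the counts is not given in the sources used here. Reads shared with an antisense partner, as at TYMS and PCNA, could be divided wrongly if the counting did not use strand, which the sources used here do not say.

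At the high dose the 41 genes lay a little above vehicle under every extract. The median log2 change over the members was 0.15 with Soyo-san, 0.13 with Menthae Herba and with Saengmaek-san, 0.12 with Okbyeongpung-san, 0.10 with Guibi-tang and 0.07 with Saposhnikoviae Radix, while the median over all genes tested stayed within 0.01 of 0 in each of these comparisons. All 6 share the same 3 vehicle libraries, so they are not independent of each other. In a fit with the library-order term described further on, the members' median was 0.13 with Menthae Herba and 0.12 with Soyo-san. It was 0.11 with Saengmaek-san, 0.10 with Guibi-tang, and 0.07 with Okbyeongpung-san and with Saposhnikoviae Radix. The ranking of the extracts thus changed with the fit. The summed level of the members was 4011 to 4109 CPM in vehicle libraries and 4065 to 4723 CPM in the 57 treated ones, and 56 of the 57 were above the highest vehicle library.

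**Figure D1:**
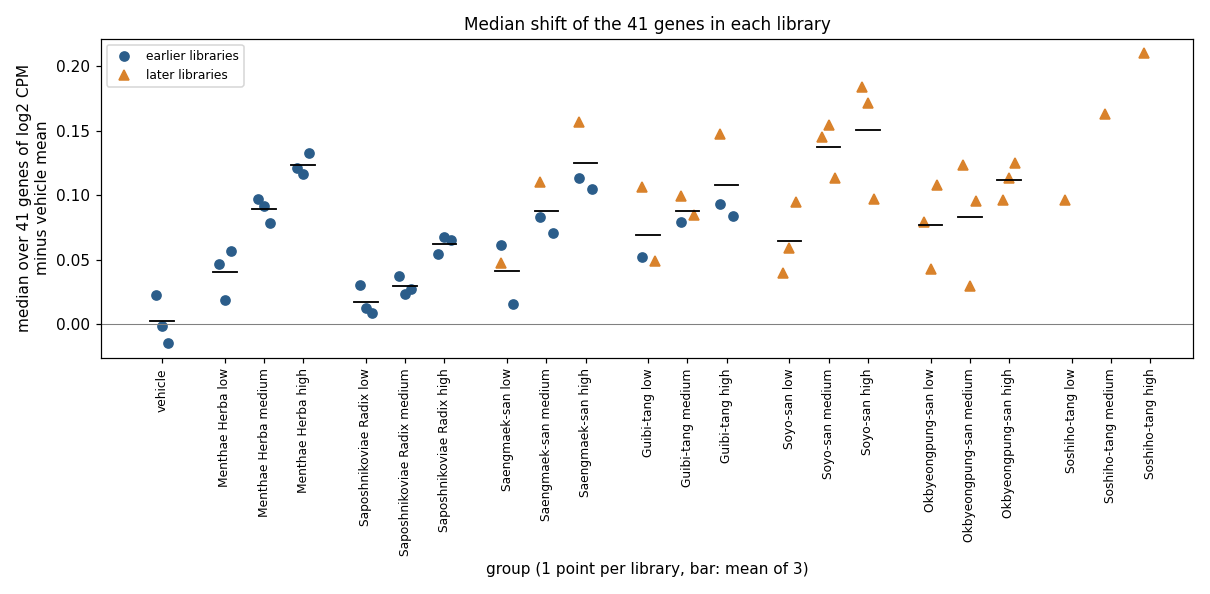
Median over the 41 genes of log2 CPM minus the vehicle mean (y axis, log2), 1 point per library for each group (x axis), with bars at the mean of 3 libraries. Vehicle libraries sit between -0.01 and 0.02, Menthae Herba high between 0.12 and 0.13, and the single Soshiho-tang high library at 0.21. Circles are earlier and triangles later libraries.

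By edgeR's quasi-likelihood test (adjusted p under 0.05), members rose and none fell in the high-dose comparisons, in which 0.205 to 6.43% of all genes tested were called lower. Soyo-san raised 20 of the 41, against 8.03% of all genes tested called higher. Menthae Herba raised 14 (4.59% of all genes), Saengmaek-san 9 (2.39%), Okbyeongpung-san 8 (4.36%) and Guibi-tang 5 (1.28%). Saposhnikoviae Radix gave 0 calls (0.293% of all genes), with 10 members higher and 0 lower at an unadjusted p under 0.05, and 1 call by DESeq2. The percentages in this paragraph are at the adjusted threshold. Counts at an unadjusted p, here and below, stand without the share of all genes from the same fit. They are therefore not read as a rise of the genes counted. With the library-order term 11 members were higher at that unadjusted cut, beside 1286 of the 17049 genes. In all, 27 members were called in at least 1 high-dose comparison and 14 in none. The share of all genes called in at least 1 of them is not given here, so the 27 have no background.

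These counts moved with single libraries. The share of all genes called in the same refits is not given here, so the counts describe the members alone. For Menthae Herba high, 8 members were called without vehicle replicate 2 and 8 without vehicle replicate 3, and 9 without its own replicate 1 or 3. The Saengmaek-san count of 9 became 1, 5 and 3 without vehicle replicates 1, 2 and 3, and 2 and 4 without its own replicates 2 and 3. For Guibi-tang the 5 became 2 without any 1 vehicle library, 1 without its own replicate 1 and 3 without its replicate 2 or 3. Soyo-san had 12 calls without vehicle replicate 3, 8 without its own replicate 1 and 12 without its replicate 2. The 8 calls of Okbyeongpung-san fell to 5 without vehicle replicate 3, to 5 without its own replicate 1 and to 4 without its replicate 2. No member was called lower in any of these fits.

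**Figure D2:**
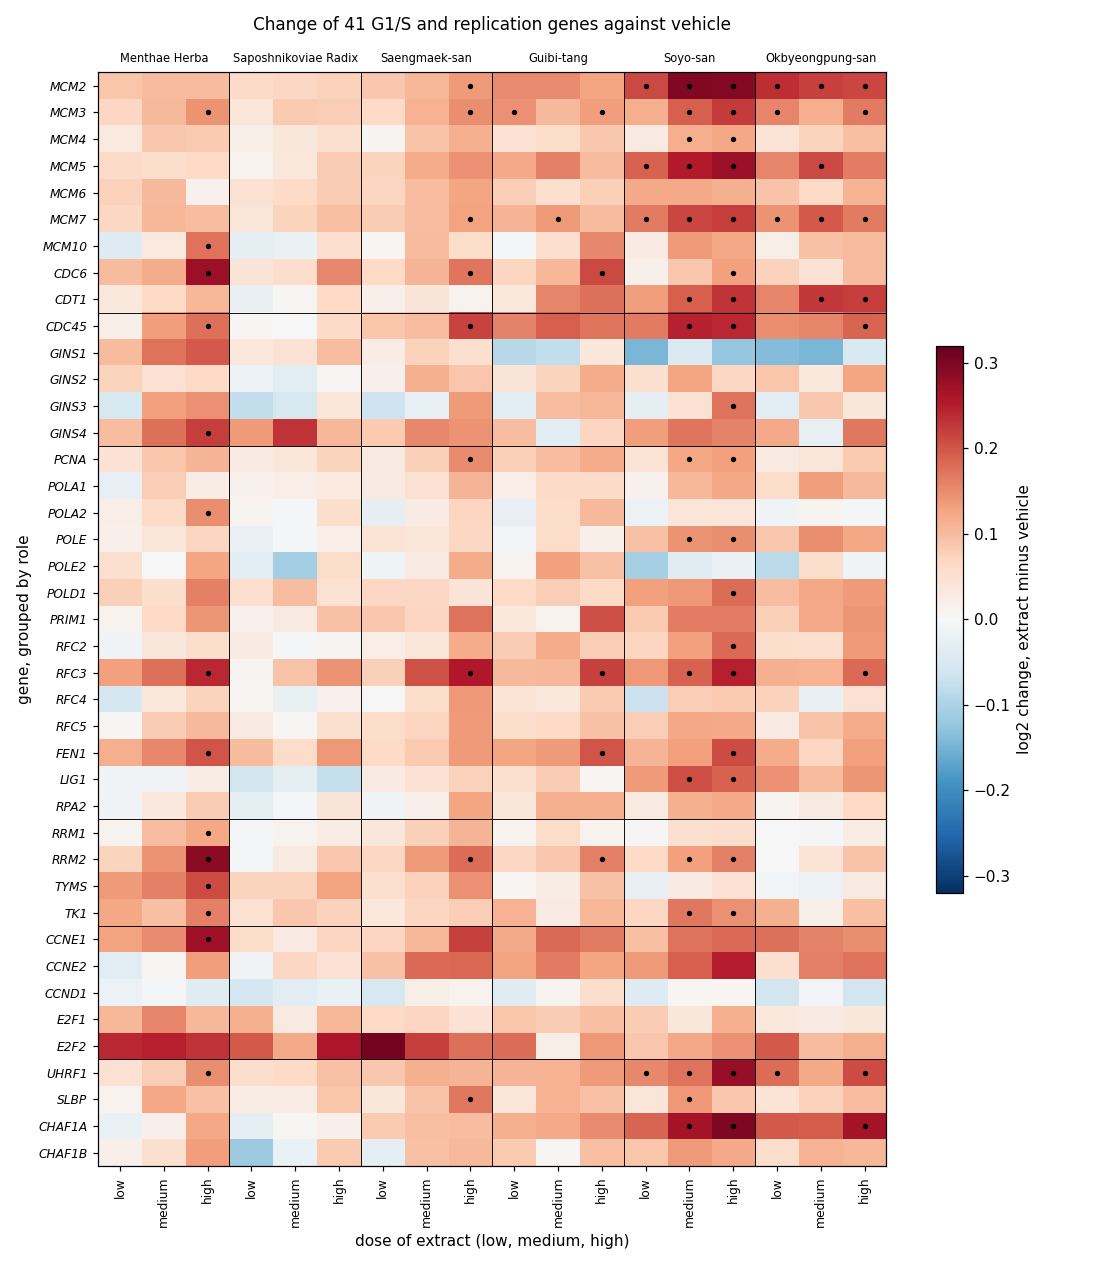
Log2 change against vehicle (colour) of the 41 genes (rows, grouped by role) under 6 extracts at 3 doses (columns). Black dots mark an adjusted p under 0.05, of which Soyo-san has 20 at the high dose and Saposhnikoviae Radix 0.

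Under Soyo-san high the genes of the MCM ring and its loading had the highest median change of the 6 roles, 0.22 on the log2 scale. Of these 9 genes 7 rose with Soyo-san, 4 each with Okbyeongpung-san and Saengmaek-san, 3 with Menthae Herba and 2 with Guibi-tang. MCM2 (ENSG00000073111, chr3:127598223-127622436), a subunit of the ring, stood at 221, 221 and 213 CPM in the vehicle libraries and at 285, 269 and 247 CPM with Soyo-san high. These groups did not overlap, and the change was 0.29 ± 0.04 on the log2 scale (SE, adjusted p = 2.26e-06). With Okbyeongpung-san high MCM2 was at 257, 248 and 254 CPM (0.21 ± 0.04, adjusted p = 0.000826), again above every vehicle library. Under Menthae Herba high it read 244, 229 and 229 CPM, a fitted 0.10 ± 0.04 that did not pass the threshold (adjusted p = 0.123).

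MCM7 (ENSG00000166508, chr7:100092728-100101940), the most abundant ring subunit per kilobase, was at 376, 368 and 363 CPM with vehicle and at 441, 428 and 420.2 CPM with Soyo-san high (0.22 ± 0.03, adjusted p = 8.9e-06). Okbyeongpung-san high gave 415, 411 and 416 CPM (0.17 ± 0.03, adjusted p = 0.00135) and Saengmaek-san high 414, 393 and 404 CPM (0.13 ± 0.03, adjusted p = 0.0196), all above vehicle. MCM3, another ring subunit, was called under 5 extracts. Its vehicle libraries were at 193, 201 and 196 CPM, and its high-dose libraries at 240.4, 227 and 221 CPM with Soyo-san and at 219, 213 and 219.8 CPM with Menthae Herba. The fitted changes were 0.22 ± 0.04 and 0.14 ± 0.04 (adjusted p = 5.29e-05 and 0.0104), and 0.13 to 0.17 in the other 3 called comparisons.

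MCM5 rose with Soyo-san alone among the 6 high-dose comparisons; differences between extracts were tested only for the 3 pairs described further on. Its vehicle libraries were at 110, 101 and 98.2 CPM and those of Soyo-san high at 132, 125 and 117 CPM (0.27 ± 0.06, adjusted p = 0.000773). Its Menthae Herba libraries, at 108, 105 and 109.7 CPM, lay inside the vehicle range (0.06 ± 0.06, adjusted p = 0.569). CDC6 (ENSG00000094804, chr17:40287633-40304657), the ATPase that loads the ring, showed its largest tested change with Menthae Herba. Vehicle libraries were at 78.0, 81.7 and 81.7 CPM and Menthae Herba high libraries at 101, 95.5 and 95.7 CPM, with no overlap (0.27 ± 0.04, adjusted p = 1.75e-05). Guibi-tang high gave 98.5, 89.7 and 91.6 CPM (0.21 ± 0.04, adjusted p = 0.0028) and Saengmaek-san high 92.2, 89.8 and 89.7 CPM (0.17 ± 0.04, adjusted p = 0.0188). With Soyo-san high CDC6 was at 92.3, 90.9 and 81.0 CPM, and the last of these lay within the vehicle range, although the fit called it (0.13 ± 0.04, adjusted p = 0.0398).

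MCM10, which helps to switch the loaded helicase on, was at 39.6, 37.4 and 38.0 CPM with vehicle and at 42.8, 41.8 and 45.0 CPM with Menthae Herba high (0.17 ± 0.05, adjusted p = 0.0206). No other extract raised it past the threshold at this dose, with fitted changes of 0.05 to 0.15. CDT1, the partner of CDC6, rose with Soyo-san (0.23 ± 0.06) and Okbyeongpung-san (0.22 ± 0.06), and MCM4 with Soyo-san (0.12 ± 0.04). MCM6 was called under none, with changes of 0.01 to 0.13.

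Among the 5 genes that complete the helicase, CDC45 was called under 4 extracts. Its vehicle libraries were at 49.1, 48.4 and 45.6 CPM, those of Soyo-san high at 58.6, 56.7 and 53.6 CPM (0.24 ± 0.06, adjusted p = 0.00258) and those of Saengmaek-san high at 52.3, 54.2 and 60.3 CPM (0.22 ± 0.06, adjusted p = 0.0175). Menthae Herba (0.18 ± 0.06) and Okbyeongpung-san (0.19 ± 0.06) gave adjusted p-values of 0.0361 and 0.0342. Of the GINS subunits, GINS3 rose with Soyo-san (0.17 ± 0.06) and GINS4 with Menthae Herba (0.22 ± 0.07). GINS2 ran from 0.00 to 0.13 and GINS1 from -0.12 with Soyo-san to 0.20 with Menthae Herba, all without a call.

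The 14 genes of polymerases, clamp and Okazaki fragment joining were raised in 7 cases by Soyo-san, in 3 by Menthae Herba, in 2 each by Saengmaek-san and Guibi-tang and in 1 by Okbyeongpung-san. RFC3, a subunit of the clamp loader, was called under 5 extracts. It was at 68.1, 68.6 and 69.1 CPM with vehicle and at 77.3, 83.7 and 85.1 CPM with Saengmaek-san high (0.26 ± 0.06, adjusted p = 0.0059). Menthae Herba high libraries read 80.2, 82.3 and 80.7 CPM (0.24 ± 0.06, adjusted p = 0.00314) and Soyo-san high libraries 88.5, 80.7 and 75.1 CPM (0.25 ± 0.06, adjusted p = 0.00188). In each of these groups every library was above vehicle.

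FEN1, the nuclease that trims Okazaki fragments, was at 147, 149 and 151 CPM with vehicle. It read 182, 173 and 162 CPM with Soyo-san high (0.21 ± 0.05, adjusted p = 0.00222), 175, 174 and 166 CPM with Menthae Herba high (0.20 ± 0.05, adjusted p = 0.00411) and 172, 172 and 172 CPM with Guibi-tang high (0.20 ± 0.05, adjusted p = 0.0107). PCNA, the clamp, was at 186, 179 and 184 CPM with vehicle, at 201, 199.6 and 209.9 CPM with Saengmaek-san high (0.15 ± 0.04, adjusted p = 0.0197) and at 204, 196 and 202 CPM with Soyo-san high (0.13 ± 0.04, adjusted p = 0.0196). Its Menthae Herba high libraries, at 198, 199 and 196 CPM, were also above vehicle, without passing the threshold (0.11 ± 0.04, adjusted p = 0.0767).

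Further calls of this role were POLE and POLD1, catalytic subunits of polymerases epsilon and delta, RFC2 and the ligase LIG1 with Soyo-san (changes of 0.15 to 0.19), and POLA2, a subunit of polymerase alpha, with Menthae Herba (0.15 ± 0.04). The remaining genes POLA1, POLE2, PRIM1, RFC4, RFC5 and RPA2 were called under no extract. Their fitted changes ran from -0.02 (POLE2) to 0.21 (PRIM1).

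All 4 genes of nucleotide supply rose with Menthae Herba. RRM2 (ENSG00000171848, chr2:10120698-10131419), the regulatory subunit of ribonucleotide reductase, had the largest change of all members there. Vehicle libraries were at 284, 274 and 268 CPM and Menthae Herba high libraries at 337, 340.1 and 330.1 CPM (0.29 ± 0.04, adjusted p = 1.02e-06), with no overlap. RRM2 also rose with Saengmaek-san high at 302, 317 and 315 CPM (0.18 ± 0.04, adjusted p = 0.00729), with Guibi-tang high at 314, 299.8 and 309.5 CPM (0.16 ± 0.04, adjusted p = 0.0162) and with Soyo-san high at 321, 310.0 and 293 CPM (0.16 ± 0.04, adjusted p = 0.00466). With Saposhnikoviae Radix high, at 295, 299 and 282 CPM, it overlapped vehicle.

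TYMS (ENSG00000176890, chr18:657604-673578), thymidylate synthase, was at 127, 126 and 127 CPM with vehicle and at 150.0, 152 and 139 CPM with Menthae Herba high (0.21 ± 0.05, adjusted p = 0.00371). Under Soyo-san high it stood at 132, 133 and 129 CPM (0.05 ± 0.05, adjusted p = 0.58), close above vehicle, and under Okbyeongpung-san high at 129, 124 and 137 CPM (0.03 ± 0.05, adjusted p = 0.772), overlapping it. TK1, thymidine kinase, read 158, 152 and 151 CPM with vehicle, 179, 170.2 and 168 CPM with Menthae Herba high (0.16 ± 0.05, adjusted p = 0.0276) and 167, 172 and 172 CPM with Soyo-san high (0.15 ± 0.05, adjusted p = 0.0366). RRM1, the catalytic subunit of the reductase, rose with Menthae Herba (0.12 ± 0.04).

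**Figure D3:**
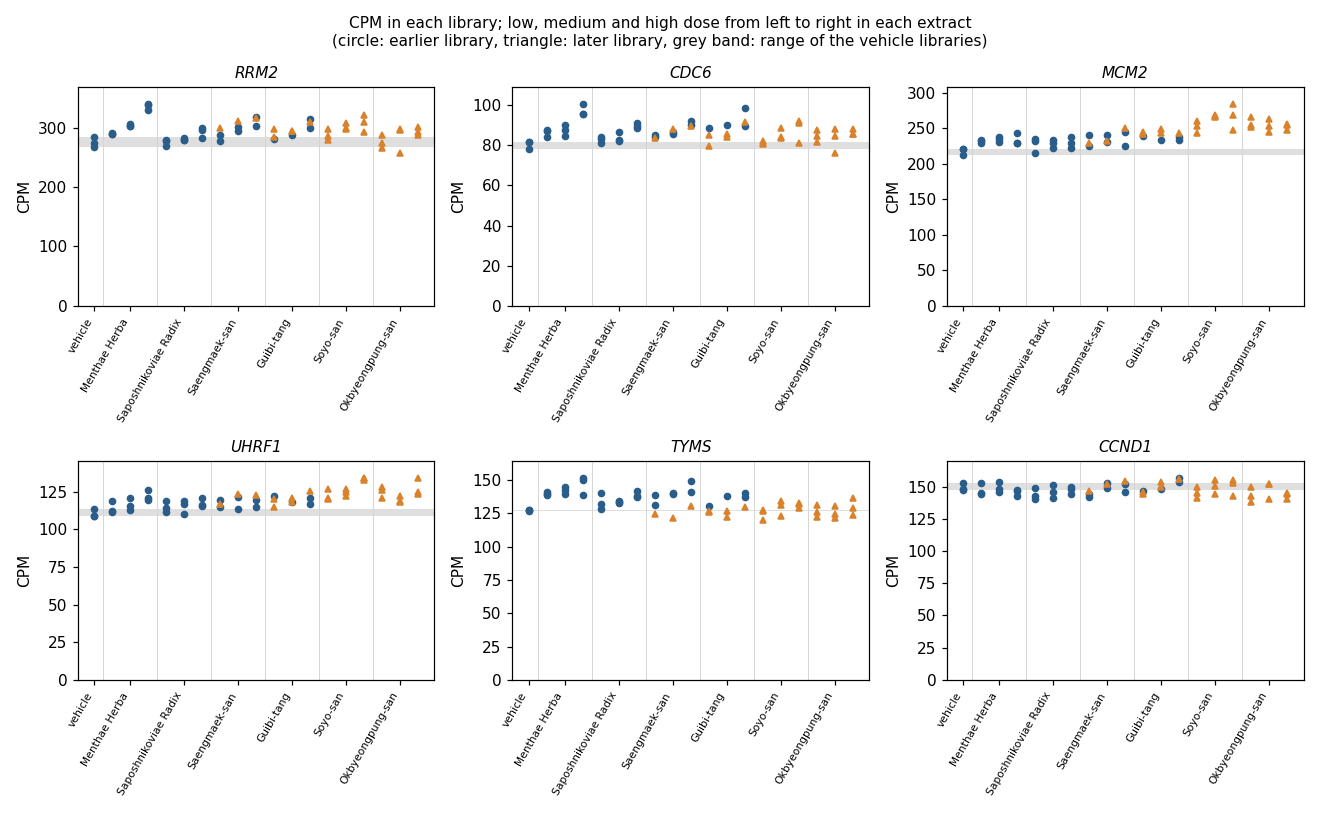
CPM (y axes from 0) of 6 members in each of 57 libraries, by extract and dose (x axes, low to high from left to right), with the range of the vehicle libraries as a grey band. RRM2 climbs to 340.1 CPM with Menthae Herba high, MCM2 to 285 CPM with Soyo-san high, and CCND1 stays about the band. Circles are earlier and triangles later libraries.

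Of the 5 cyclins and E2F factors, 1 gene was called in 1 comparison. CCNE1 (cyclin E1, ENSG00000105173, chr19:29811898-29824308), which activates CDK2 before S phase, was at 18.9, 19.5 and 18.5 CPM with vehicle and at 23.7, 23.7 and 21.4 CPM with Menthae Herba high (0.27 ± 0.07, adjusted p = 0.00576). Saengmaek-san high gave 20.5, 21.2 and 25.2 CPM and narrowly missed the threshold (0.22 ± 0.07, adjusted p = 0.0503). CCNE2, cyclin E2, read 10.6, 12.6 and 11.9 CPM with vehicle and 14.2, 14.3 and 13.3 CPM with Soyo-san high (0.25 ± 0.09, adjusted p = 0.0662).

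CCND1, cyclin D1, which answers to growth factor signals earlier in G1, was called under no extract. It was at 153, 148 and 148 CPM with vehicle, and its fitted high-dose changes ran from -0.06 to 0.06 with standard errors of 0.04. Menthae Herba high (147, 142 and 147 CPM) and Okbyeongpung-san high (145, 145 and 141 CPM) lay just below every vehicle library and Guibi-tang high (157, 153 and 156 CPM) just above, and none was called. E2F1 was at 65.5, 62.2 and 64.5 CPM with vehicle and at 68.7, 68.3 and 71.3 CPM with Soyo-san high (0.12 ± 0.05, adjusted p = 0.142). E2F2, read at 8.91, 8.14 and 7.77 CPM with vehicle, stood at 10.0, 9.45 and 9.64 CPM with Menthae Herba high (0.23 ± 0.08, adjusted p = 0.0592) and at 10.5, 9.94 and 9.26 CPM with Saposhnikoviae Radix high (0.26 ± 0.08, adjusted p = 0.142). Both groups were above vehicle without passing the threshold.

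Of the 4 genes that copy chromatin with the DNA, UHRF1 (ENSG00000276043, chr19:4903080-4962154), which brings DNA methyltransferase to new DNA, was called under 3 extracts. Vehicle libraries were at 113, 109 and 109 CPM and those of Soyo-san high at 134, 134 and 133 CPM (0.28 ± 0.04, adjusted p = 2.26e-06). Okbyeongpung-san high gave 134, 125 and 123 CPM (0.21 ± 0.04, adjusted p = 0.000613) and Menthae Herba high 126, 119.5 and 121 CPM (0.15 ± 0.04, adjusted p = 0.0116). No library of these groups reached down to vehicle. CHAF1A, the large subunit of chromatin assembly factor 1, rose with Soyo-san (0.30 ± 0.07) and Okbyeongpung-san (0.27 ± 0.07), without a call in either when library order entered the fit (0.14 ± 0.07, adjusted p = 0.187, and 0.11 ± 0.07, adjusted p = 0.445). CHAF1B, its partner, was called under none (0.08 to 0.13). SLBP, which binds histone mRNA, was at 91.3, 92.3 and 90.6 CPM with vehicle and at 99.5, 102 and 107 CPM with Saengmaek-san high (0.17 ± 0.05, adjusted p = 0.0315).

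Below the high dose the calls lay mostly with the later decoctions. At the medium dose Soyo-san raised 16 members (5.57% of all genes called higher), Okbyeongpung-san 4 (2.17%; MCM2, MCM5, MCM7 and CDT1) and Guibi-tang 1 (0.575%; MCM7, 0.14 ± 0.03). Menthae Herba, Saposhnikoviae Radix and Saengmaek-san gave 0 calls by edgeR (0.334%, 0.0117% and 0.164% of all genes), with 20, 3 and 13 members higher at an unadjusted p under 0.05 and 4, 0 and 2 calls by DESeq2. With the library-order term 22, 3 and 15 members were higher at that unadjusted cut, beside 1466, 1058 and 1449 of the 17049 genes. At the low dose Soyo-san raised MCM2, MCM5, MCM7 and UHRF1 (2.04%), Okbyeongpung-san MCM2, MCM3, MCM7 and UHRF1 (4.74%) and Guibi-tang MCM3 (0.504%). The other 3 extracts gave 0 calls at that dose by edgeR and by DESeq2 (0.0117%, 0.0645% and 0.0352%), with 7, 3 and 4 members higher at an unadjusted p under 0.05. With the library-order term 10, 3 and 4 members were higher at that cut and 0, 1 and 0 lower. Of all 17049 genes 1194, 1212 and 765 were then higher. For Okbyeongpung-san low the 4 calls, 9.76% of the members, stood against a background of 4.74%. Several of these calls rested on a fit without library order. With a term for it Soyo-san low lost MCM5 (0.09 ± 0.06, adjusted p = 0.448) and UHRF1 (adjusted p = 0.106), and E2F1 was called besides MCM2 and MCM7 (1.95% of all genes). Okbyeongpung-san low lost MCM3 (adjusted p = 0.0841) and Guibi-tang low lost it too (adjusted p = 0.113), with E2F2 called in both (2.59% and 0.68%). Okbyeongpung-san medium then had MCM2 and MCM7 alone (0.991%).

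These smaller counts also moved with single libraries, again without the share of all genes called in the same refits. The 16 of Soyo-san medium became 10, 10 and 7 without vehicle replicates 1, 2 and 3, and 10 and 8 without its own replicates 1 and 2. Okbyeongpung-san medium fell from 4 to 2 without vehicle replicate 2 or 3 or its own replicate 1. Soyo-san low fell from 4 to 2 without vehicle replicate 2 or 3 or its own replicate 2 or 3. The single Guibi-tang calls at medium and low dose were lost without any 1 vehicle library and without its replicate 2 or 3, and became 4 and 3 calls without its replicate 1.

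The members' median was ordered by dose in each extract, with unequal separation between the doses. The median change at high, medium and low dose was 0.13, 0.09 and 0.05 with Menthae Herba, 0.07, 0.03 and 0.01 with Saposhnikoviae Radix, 0.13, 0.08 and 0.05 with Saengmaek-san, 0.10, 0.08 and 0.07 with Guibi-tang, 0.15, 0.13 and 0.08 with Soyo-san and 0.12, 0.09 and 0.07 with Okbyeongpung-san. With the library-order term the medians were 0.12, 0.11 and 0.03 with Soyo-san and 0.07, 0.04 and 0.03 with Okbyeongpung-san. They were then 0.10, 0.07 and 0.03 with Guibi-tang and 0.11, 0.08 and 0.04 with Saengmaek-san. For Menthae Herba the term gave 0.13, 0.09 and 0.05, and for Saposhnikoviae Radix 0.07, 0.03 and 0.01. Group means ran high over medium over low for 29 of 41 members with Saengmaek-san (22.2% of all genes), 27 with Soyo-san (20.5%), 26 with Menthae Herba (23.0%), 23 with Saposhnikoviae Radix (18.6%), 19 with Guibi-tang (18.2%) and 11 with Okbyeongpung-san (14.5%). The opposite order was found for 0 to 2 members per extract, beside 15.4 to 21.2% of all genes. By library the members' medians of Okbyeongpung-san medium (0.03 to 0.12) and low dose (0.04 to 0.11) overlapped those of its high dose (0.10 to 0.12). Guibi-tang medium (0.08 to 0.10) and low dose (0.05 to 0.11) overlapped its high dose (0.08 to 0.15). Soyo-san medium (0.11 to 0.15) lay inside its high-dose range (0.10 to 0.18). Saengmaek-san medium (0.07 to 0.11) reached into its high-dose range (0.10 to 0.16), and Saposhnikoviae Radix low (0.01 to 0.03) into its medium one (0.02 to 0.04). The ranges of Menthae Herba did not overlap. For Okbyeongpung-san the order of medium over low did not hold without its medium replicate 1, when the medium-dose median was 0.05 beside 0.07 at low dose. Low-dose medians also moved with single libraries, to 0.04 for Okbyeongpung-san without its replicate 3, to 0.04 for Guibi-tang without its replicate 2 and to 0.03 for Menthae Herba without its replicate 3 or vehicle replicate 3. For Saposhnikoviae Radix the low-dose median was 0.01 without its own replicate 1, 0.02 without vehicle replicate 1 and 0.03 without vehicle replicate 2 or its own replicate 3.

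Between high and low dose of the same extract, which leaves vehicle out, 4 members were called higher with Menthae Herba (1.13% of all genes). RRM2 went from 290.4, 289 and 288 CPM at low through 302, 303 and 307 CPM at medium to 337, 340.1 and 330.1 CPM at high dose, and no library of one dose overlapped the next (high minus low 0.22 ± 0.04, adjusted p = 0.000333). MCM10 went from 38.1, 37.4 and 36.1 CPM at low to 42.8, 41.8 and 45.0 CPM at high dose (0.22 ± 0.05, adjusted p = 0.00623). CDC6 rose by 0.17 ± 0.04 (adjusted p = 0.0155) and GINS3 by 0.20 ± 0.06 (adjusted p = 0.0375). The count became 2 without low replicate 2, 1 without low replicate 3 and 2 without high replicate 3.

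The other 5 extracts gave 0 calls between high and low dose by edgeR and by DESeq2 (0.0293% of all genes called higher with Saposhnikoviae Radix, 0.0117% with Saengmaek-san, 0.211% with Guibi-tang, 0.088% with Soyo-san and 0.00587% with Okbyeongpung-san). At an unadjusted p under 0.05 they had 5, 13, 9, 11 and 1 members higher and 0 lower. With the library-order term these counts were 5, 16, 10, 14 and 1, beside 357, 900, 852, 962 and 498 of the 17049 genes. Members with a fitted change above 0 numbered 36, 37, 30, 40 and 35 of 41, with medians of 0.05, 0.08, 0.04, 0.08 and 0.04. With the library-order term 36, 37, 32, 40 and 35 were above 0, beside 49.8, 52, 50.8, 50.7 and 50.8% of all genes.

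Set against each other at the high dose, Menthae Herba and Saposhnikoviae Radix, whose libraries were all earlier, differed in RRM2 (0.493% of all genes higher). Its libraries at 337, 340.1 and 330.1 CPM with Menthae Herba were all above the 295, 299 and 282 CPM with Saposhnikoviae Radix (0.20 ± 0.04, adjusted p = 0.00218), and 1 member was called without any 1 library too. The median difference over the members was 0.06. Guibi-tang minus Saengmaek-san gave 0 calls by edgeR and by DESeq2 (0.328%), 1 member higher and 1 lower at an unadjusted p under 0.05, and a median of -0.03. Soyo-san minus Okbyeongpung-san, both later, also gave 0 calls by both tools (0% of all genes), 1 member higher at an unadjusted p under 0.05, a median of 0.03 and changes from -0.07 to 0.14.

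Some of the members differed between the earlier and later libraries. The 2 parts were set by the sign of the first principal component of these same data, which follows the library numbers. Counts of genes that differ between the parts are therefore a description and not an independent test. What the order stands for is not given in the sources used here. In a fit with a term for the earlier or later libraries, estimated from the Saengmaek-san and Guibi-tang groups that had both, 9 members were higher in later libraries (15.9% of all genes) and 4 lower (13.7%). The higher ones included CCNE2, CHAF1A, CDC45, LIG1 and CCNE1, and the lower ones were GINS1, E2F2, TYMS and E2F1. TYMS was lower by 0.13 on the log2 scale, and CDC45 higher by 0.13.

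**Figure D4:**
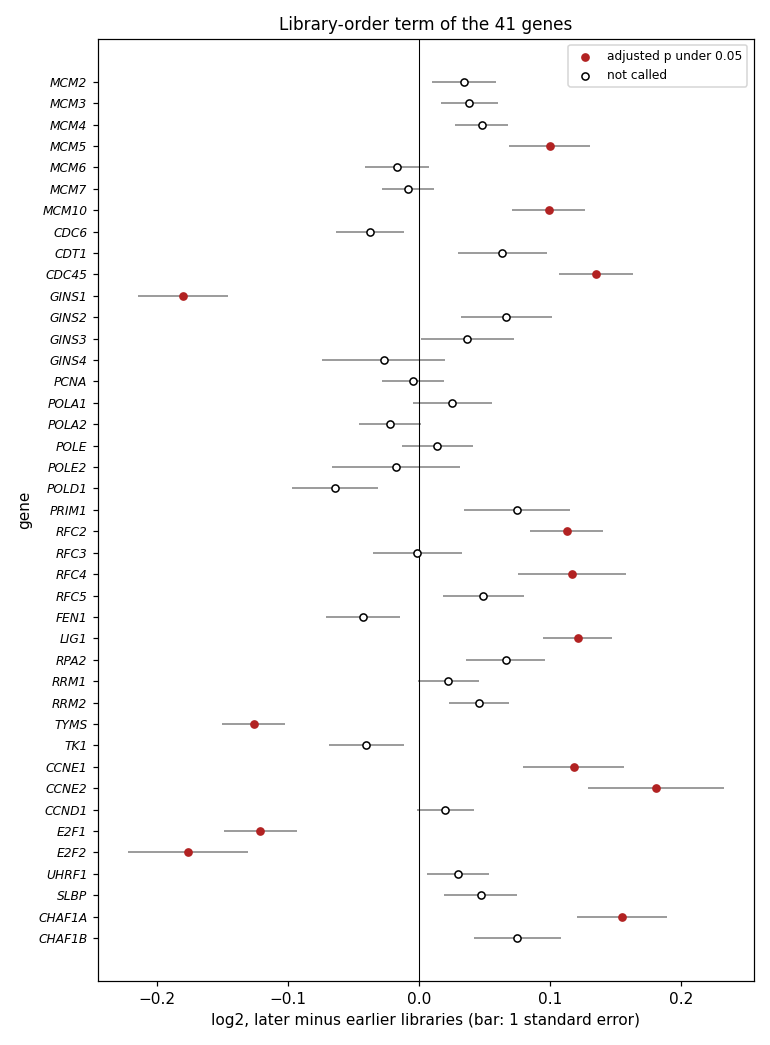
Later minus earlier libraries (x axis, log2, bars of 1 standard error) for the 41 genes (y axis). Filled points have an adjusted p under 0.05, 9 above 0 and 4 below. MCM7 and RFC3 lie near 0, and MCM2 at 0.03, the median of the members.

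With this term Soyo-san high had 12 calls (3.92% of all genes), Okbyeongpung-san high 3 (1.3%) and Soyo-san medium 5 (1.57%), while Menthae Herba high had 18 (6.39%), Saengmaek-san high 12 (3.67%), Guibi-tang high 6 (2.12%) and Saposhnikoviae Radix high 2 (0.645%). For Soyo-san high MCM2 (0.26 ± 0.05, adjusted p = 0.000206), MCM7 (0.23 ± 0.04, adjusted p = 5.23e-05) and UHRF1 (0.25 ± 0.05, adjusted p = 0.000208) passed in this fit too. Of the 20 genes called for Soyo-san high without the term, 9 passed with it and 11 did not. These 11 were MCM4, MCM5, CDT1, CDC45, GINS3, PCNA, POLE, RFC2, LIG1, RRM2 and CHAF1A. The log2 change of LIG1 went from 0.19 to 0.07, that of RFC2 from 0.18 to 0.07, that of CDC45 from 0.24 to 0.11 and that of CHAF1A from 0.30 to 0.14, while MCM5 (adjusted p = 0.0605), PCNA (0.0541) and RRM2 (0.097) lay closer to the threshold. By contrast, E2F1 (0.24 ± 0.05, adjusted p = 0.00288), E2F2 (0.32 ± 0.09, adjusted p = 0.0151) and TYMS (0.17 ± 0.05, adjusted p = 0.0131) passed there only, not without the term. The 3 calls of Okbyeongpung-san high were MCM2, MCM7 and UHRF1, and the 5 lost were MCM3, CDT1, CDC45, RFC3 and CHAF1A. Of the 16 calls of Soyo-san medium 4 passed with the term, namely MCM2, MCM3, MCM7 and TK1, and E2F2 passed with it only. Among the earlier libraries alone, Menthae Herba high had 19 calls (7.49% of all genes tested there), Saengmaek-san high 14 (4.48%), Guibi-tang high 5 (2.14%) and Saposhnikoviae Radix high 4 (1.37%), with medians of 0.12, 0.10, 0.09 and 0.07.

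A further list held 43 other replication genes. At the high dose 12 rose and 0 fell with Menthae Herba (27.9% of the list called higher, beside 4.59% of all genes), 14 rose and 2 fell with Soyo-san (32.6% beside 8.03%), 9 rose and 2 fell with Okbyeongpung-san (20.9% beside 4.36%), 6 rose with Saengmaek-san (14.0% beside 2.39%) and 3 with Guibi-tang (6.98% beside 1.28%), and 0 changed with Saposhnikoviae Radix (10 higher and 1 lower at an unadjusted p under 0.05 by edgeR). Their medians were 0.05 to 0.12. DCTPP1, which clears damaged nucleotides, rose with Soyo-san (0.32 ± 0.05, adjusted p = 8.45e-06), and ORC1, a subunit of the origin recognition complex, with Menthae Herba (0.27 ± 0.06, adjusted p = 0.000764).

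Of 33 other G1/S regulators 32 were tested. With Menthae Herba high 7 rose and 2 fell (21.9% of the list called higher, beside 4.59% of all genes), with Soyo-san 4 rose (12.5% beside 8.03%), with Okbyeongpung-san 3 rose and 1 fell (9.38% beside 4.36%), and with Saengmaek-san and Guibi-tang 1 each rose (3.12% beside 2.39% and 1.28%). RBL1, the pocket protein p107 and itself an E2F target, rose under all 5 of these extracts (0.26 to 0.35). CDK6 (0.28 ± 0.06) and the phosphatase CDC25A (0.24 ± 0.06) rose with Menthae Herba. CDKN1A, the CDK inhibitor p21, was called under no extract, with values from -0.19 ± 0.11 with Okbyeongpung-san to 0.22 ± 0.10 with Guibi-tang.

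Genes of G2 and mitosis were 36 in number. Under Menthae Herba 1 rose (MAD2L1, 0.26 ± 0.05), which is 2.78% of the list beside 4.59% of all genes, 1 fell (CDC25B, -0.13 ± 0.04), and the median was -0.04 with 11 of 36 above 0, beside 0.13 and 40 of 41 for the members. Under Soyo-san 4 rose and 2 fell (median 0.09, with 11.1% of the list called higher beside 8.03% of all genes), under Okbyeongpung-san 3 rose and 2 fell (0.07, 8.33% beside 4.36%), and under Saengmaek-san 4 rose and 1 fell (0.10, 11.1% beside 2.39%). Guibi-tang and Saposhnikoviae Radix gave 0 calls by edgeR, with 4 and 1 genes higher and 1 and 3 lower at an unadjusted p under 0.05. MKI67, the proliferation marker Ki-67, stayed between -0.08 and 0.12 with standard errors of 0.09, and TOP2A, topoisomerase II alpha, between 0.00 and 0.16, without a call for either. Whether the members and the mitotic genes differed was not tested as such. Calls of the lists beside the members were not counted in the fit with the library-order term. For the later decoctions they cannot be told apart from library order. The summed level of the G2 and mitosis genes was 5720 and 6023 CPM in the earlier Saengmaek-san high libraries and 6554 CPM in the later one. With Guibi-tang high it was 5713 and 5695 CPM in the earlier libraries and 6389 CPM in the later one.

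The 10 other genes whose group means over the 19 groups were most like the mean of the standardised members were PRMT3, DSCC1, CCT6A, ASPH, DKC1, UBE2N, DDX21, RAD23B, RAD51AP1 and DIMT1. Their Pearson correlations ran from 0.951 (PRMT3) to 0.924 (DIMT1), as a description over group means that share vehicle, library order and dose.

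Soshiho-tang, with 1 library per dose and no replicate check, had member medians of 0.21 at high, 0.16 at medium and 0.10 at low dose, on the scale of log2 CPM against the vehicle mean. The high-dose value was the highest of all libraries, whereas the medium one lay below 2 of the 3 Soyo-san high libraries and the low one within the range of the tested extracts' libraries. RRM2 was at 362 CPM in the high-dose library (95% Poisson interval 355 to 370.4, counting error only), 310.1 CPM in the medium and 291 CPM in the low one, beside 268 to 284 CPM with vehicle. CDC6 stood at 105 CPM (101 to 109.5), 91.9 and 85.3 CPM beside 78.0 to 81.7 CPM. CCND1, at 153, 151 and 139 CPM, was again near its vehicle range of 148 to 153 CPM.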

How the data were processed

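RNA sequencing libraries of HT29 cells (60, MGIEasy directional kit, 100 bp paired reads, per the labels' protocols) were deposited as a table of expected counts. The authors made these expected counts with RSEM 1.3.3, with STAR 2.7.3a, Trim Galore 0.6.5 and FastQC 0.11.9 also named, against GRCh38, per the submitters' processing notes. Neither the annotation release nor the strand setting is given in the sources used here. RSEM divides reads that match several genes. Values were rounded to whole numbers (27.7% of those above 0 were not whole).

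Titles and characteristics gave the groups. For 19 groups of 3, 57 libraries entered 1 fit with edgeR 4.0.16 in R 4.3.3 (filterByExpr, TMM, robust quasi-likelihood test, 38 residual degrees of freedom). All 27 comparisons (18 with vehicle, 6 of high against low dose, 3 between extracts) used Benjamini-Hochberg adjustment over the 17049 genes, threshold 0.05. CPM use TMM-scaled library sizes, and log2 CPM a prior count of 2. Each standard error was derived from a fold change and its F statistic. Replicate pairs within groups differed beyond counting noise (chi-square over degrees of freedom 1.89 to 26.1 in 57 pairs). Alternatives were DESeq2 1.42.0 as a test and for size factors, no filter, the 2 groups alone, a replicate block, a library-order term, either part of the library order alone, and leaving out each library. The fit was checked on simulated data for Menthae Herba high against vehicle. Of genes simulated with a log2 change of 0.2, 34.3% were called, beside 92.5% at 0.4 and 98.5% at 1. A member without a call may therefore still have changed by an amount of the size seen here.

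The members, the role groups and the other lists were chosen with earlier results of these data known. Every member is accounted for; values per library are given for 15 members chosen by name and for the 4 with the smallest p in each high-dose comparison, genes of other lists were named for the 3 smallest p-values per high-dose comparison, besides MKI67, TOP2A and CDKN1A, and the genes most alike were the 10 with the highest correlation.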

Additional observations from a re-analysis of the deposited data

Results flagged for a closer look

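RRM2 was higher with Menthae Herba high than with Saposhnikoviae Radix high in a direct test of the 2 groups, by 0.20 ± 0.04 on the log2 scale (edgeR's quasi-likelihood test, adjusted p = 0.00218), in 3 of 3 libraries against every one of the other group.

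The 3 Soshiho-tang libraries, which entered no comparison, also held the members above vehicle. At high dose 38 of the 41 members were above the highest vehicle library and 1 below the lowest, where 38% of all genes tested were above and 37.9% below. At medium dose 37 were above and 0 below (34% and 32.6% of all genes), and at low dose 33 above and 3 below (33.7% and 31.6%). Against the highest of the later tested libraries, which share their place in the library order, 15, 1 and 0 members were above. The share of all genes above that range was not counted, so these numbers are not read as a trait of the members. With 1 library per dose there is no replicate check.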

How the results depend on the processing

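In the 342 refits of the 27 counts of members called, 248 stayed within 1.5 times the count as reported, and no member was called lower in any refit. Comparisons that had no call in either fit are among the 248, so this number overstates how steady the counts with calls were. How far those counts moved is given below. The share of all genes called in each refit does not stand beside them. Whether the members moved more than other genes can therefore not be told from them. Where a count moved, the cause was not tested.

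Leaving out 1 library at a time gave 8 to 10 calls for Menthae Herba high, 1 to 8 for Saengmaek-san high, 1 to 3 for Guibi-tang high, 8 to 21 for Soyo-san high, 4 to 9 for Okbyeongpung-san high, 0 to 4 for Guibi-tang medium, 7 to 13 for Soyo-san medium, 2 to 6 for Okbyeongpung-san medium, 0 to 3 for Guibi-tang low, 2 to 4 for Soyo-san low and 1 to 4 for Menthae Herba high against low dose. With no filter on low counts, so that more genes entered the adjustment, the calls were 8 for Menthae Herba high, 2 for Saengmaek-san high, 3 for Guibi-tang high, 12 for Soyo-san high, 4 for Okbyeongpung-san high, 1 for Saengmaek-san medium, 0 for Guibi-tang medium, 9 for Soyo-san medium, 0 for Guibi-tang low, 2 for Soyo-san low, 2 for Okbyeongpung-san low and 2 for Menthae Herba high against low dose. DESeq2's test called 1 member for Saposhnikoviae Radix high, 8 for Guibi-tang high, 4 for Menthae Herba medium, 2 for Saengmaek-san medium, 3 for Guibi-tang medium and 3 for Guibi-tang low. DESeq2's size factors left 0 for Guibi-tang low.

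In fits of the 2 groups alone, with fewer degrees of freedom, the calls were 3 for Saposhnikoviae Radix high, 0 for Saengmaek-san high, 2 for Guibi-tang high, 6 for Menthae Herba medium, 0 for Guibi-tang medium, 1 for Menthae Herba low, 0 for Guibi-tang low, 9 for Okbyeongpung-san low and 5 for Menthae Herba against Saposhnikoviae Radix high. With the library-order term they were 2 for Saposhnikoviae Radix high, 12 for Soyo-san high, 3 for Okbyeongpung-san high, 2 for Menthae Herba medium, 2 for Saengmaek-san medium, 5 for Soyo-san medium, 2 for Okbyeongpung-san medium, 1 for Saengmaek-san low and 1 for Guibi-tang high against low dose. Among the earlier libraries alone they were 4 for Saposhnikoviae Radix high, 14 for Saengmaek-san high, 11 for Menthae Herba medium, 2 for Saengmaek-san medium, 2 for Menthae Herba low, 1 for Saengmaek-san low, 7 for Menthae Herba high against low dose and 3 for Menthae Herba against Saposhnikoviae Radix high. Guibi-tang medium and low had too few earlier libraries for such a fit, and Soyo-san and Okbyeongpung-san had none.

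Replicate numbers did not pair the libraries in general: in 1 of the 27 comparisons, Guibi-tang against Saengmaek-san high, every same-numbered pair had correlated deviations above 0.1, and there the numbers follow the library order. With the replicate block Guibi-tang medium had 2 calls in place of 1, Menthae Herba high 17, Saengmaek-san high 11 and Soyo-san high 20. Values near 0 changed sign: CCND1 with Soyo-san high became -9.8e-06 with DESeq2's size factors, -0.00629 with no filter and -0.0130 with the order term. CCND1 with Saengmaek-san high became -0.00124 with no filter and -0.00792 among earlier libraries, and CCNE2 became -0.00830 with Okbyeongpung-san high and the order term and -0.0167 with Guibi-tang high among earlier libraries. None of these was called in either fit.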
